A study of Mus musculus with 42 samples.

Results

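In untreated wild-type macrophages, 278 of 21897 protein-coding gene starts had acetylated chromatin in reach of the start but no RNA polymerase II (Pol II) there. These H3K27ac-only promoters were selected on measured values. A start was taken when the 2500 bp on either side of it overlapped an enriched region of histone H3 acetylated at lysine 27 (H3K27ac) in all 3 untreated wild-type libraries and a Pol II region in none of the 3. Of the 11360 starts with H3K27ac in all 3 libraries, 10790 also had Pol II in all 3, and a further 292 had it in 1 or 2. Another 9392 starts had neither mark in any of these libraries. After the cells were given lipopolysaccharide (LPS), Pol II was found in at least 2 of 3 libraries at 38 of the 278 in wild type at 1 h, and at 61 at 18 h. In macrophages without Nur77 the numbers were 53 at 1 h and 60 at 18 h. Without LPS these cells had it at 26 (9.35%), and of the starts with neither mark 0.735% to 1.3% had it in the LPS groups. Untreated wild type was fixed at 0 by the choice, so the numbers after LPS are not counts of gains over rest.

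The data are chromatin immunoprecipitation sequencing (ChIP-seq) of bone marrow-derived macrophages, grown from marrow of male C57Bl6/J mice of 6 to 12 weeks in L929-conditioned medium. Wild-type (WT) cells and cells lacking Nur77 (KO), the nuclear receptor encoded by Nr4a1, were left untreated (0 h) or received 100 ng/ml LPS for 1 or 18 h. Each of the 6 groups had 3 libraries for Pol II and 3 for H3K27ac, and 1 input library without immunoprecipitation. Per the article, the KO comes from mice with loxP-flanked Nr4a1 crossed to a line with Cre under the CMV promoter, which deletes the gene in the whole body, the Cre was bred out later, and WT mice were littermates. The genotype label of the KO libraries reads only cre, so Cre and the loss of Nur77 cannot be told apart from the labels alone. The article calls replicates of the ChIP data biological, while the labels do not say that the 3 libraries of a group came from separate mice or cultures, so p-values measure the spread between libraries, which may be technical.

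Acetylation of H3K27 is placed by the coactivators p300 and CBP at promoters and enhancers in use, while Pol II occupancy shows where the transcribing enzyme itself sits. LPS, a part of the outer membrane of Gram-negative bacteria, acts through Toll-like receptor 4. The first genes to respond are driven by NF-kB and AP-1 and are largely open before the stimulus, and later ones depend on newly made cytokines, interferon and changes of chromatin. Acetylated enhancers can also lie within a few kilobases of a start that is not in use.

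The ChIP libraries of Pol II held 21.7 to 36.1 M tags (M, mega), with overlapping ranges in WT and KO. Those of H3K27ac held 13.5 to 31.1 M tags in WT and 23.6 to 55.4 M in KO, and a deeper library can show weaker regions. In 2 KO groups of H3K27ac, replicate 1 was unlike the other libraries of its group. Replicate 1 of KO at 1 h had a Pearson r across 10438 windows of 0.910 and 0.912 with the other libraries of its group, which had 0.991 with each other. Replicate 1 of KO at 18 h had 0.913 and 0.914, against 0.993. Every other pair of one group reached at least 0.986 for H3K27ac and 0.964 for Pol II. At the start of Nr4a1 itself, which is not among the 278, untreated WT libraries had 17.4, 25 and 21.5 Pol II tags and untreated KO libraries 0, 5.54 and 7.71. At 1 h it was replicate 1 of KO that lay near the WT libraries of 1 h, with a mean r of 0.979. Replicates 2 and 3 of KO at 1 h had 0.903 and 0.904 with them. At 18 h the order was the other way. Replicates 2 and 3 of KO at 18 h had a mean r of 0.980 with the WT libraries of 18 h, above the 0.953 and 0.954 with their own group, while replicate 1 had 0.907 with WT. Batch, exchange of libraries and genotype cannot be told apart from these values, and their part in the H3K27ac comparisons was not tested. All 11 macrophage marker genes had both marks at rest, and all 5 stromal markers had neither. Both marks were also found at 1 of 9 T and NK cell markers (Il7r, 81.9 to 98.3 Pol II tags in WT), 1 of 6 B cell markers (Ms4a1, 28.6 to 42.2) and 1 of 7 neutrophil markers. The last was S100a8, with 15.4, 16.6 and 15.9 Pol II tags in untreated WT and 52.8, 39.3 and 45.3 in untreated KO. The other neutrophil markers were low. S100a9, Mpo and Ly6g were listed at 0 in every untreated library. Camp had 7.06, 5.96 and 0 in WT and 0 in every KO library. Elane had 4.68, 7.73 and 0 in WT and 5.85, 7.21 and 4.51 in KO, and Ngp 0, 0.813 and 0 and 0, 0 and 2.99. The part of neutrophils in the KO values was not tested.

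The promoters of 8 genes that carry the main patterns are shown first, as RefSeq gives them for build GRCm38.p6, 5′ to 3′ on the strand of the gene, from 250 bases before the start to 50 after it. Il6 stands for Pol II at both times, Cxcl3 and Olr1 for 1 h only, Serpina3g and Klrk1 for 18 h only, Cst7 for high values in every LPS group, Ch25h for a difference between the genotypes at 18 h, and Serpinb2 for low values in KO at 1 h. Capitals mark matches, on either strand, to AP-1 (TGAGTCA), to the core of the interferon-stimulated response element (ISRE, GAAANNGAA), to NF-kB (GGGNNTTCC, or GGGNNNTTCC, a form of 10 letters that was added after these sequences had been seen), to the TATA box (TATAAA), to the NBRE (AAAGGTCA), to which Nur77 binds as a monomer, to the E-box (CACGTG) and to PU.1 (GAGGAAGT), named for the factor that directs macrophage development. The intervals are chr5:30012864-30013163 for Il6, chr5:90785851-90786150 for Cxcl3, chr12:104235897-104236196 for Serpina3g, chr2:150570165-150570464 for Cst7 and chr1:107511173-107511472 for Serpinb2, all on the plus strand. On the minus strand they are chr6:129507116-129507415 for Olr1, chr6:129623815-129624114 for Klrk1 and chr19:34475099-34475398 for Ch25h.
Il6: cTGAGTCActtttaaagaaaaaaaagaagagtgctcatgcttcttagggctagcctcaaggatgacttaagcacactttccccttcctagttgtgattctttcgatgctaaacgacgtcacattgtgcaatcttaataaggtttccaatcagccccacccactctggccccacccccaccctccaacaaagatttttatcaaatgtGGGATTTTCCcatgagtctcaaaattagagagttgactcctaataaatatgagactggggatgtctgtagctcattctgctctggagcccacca
Cxcl3: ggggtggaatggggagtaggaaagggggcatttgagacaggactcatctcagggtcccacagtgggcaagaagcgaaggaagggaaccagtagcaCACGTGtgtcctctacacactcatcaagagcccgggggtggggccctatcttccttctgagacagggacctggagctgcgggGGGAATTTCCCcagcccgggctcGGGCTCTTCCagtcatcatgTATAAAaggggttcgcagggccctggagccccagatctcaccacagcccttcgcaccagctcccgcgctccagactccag
Olr1: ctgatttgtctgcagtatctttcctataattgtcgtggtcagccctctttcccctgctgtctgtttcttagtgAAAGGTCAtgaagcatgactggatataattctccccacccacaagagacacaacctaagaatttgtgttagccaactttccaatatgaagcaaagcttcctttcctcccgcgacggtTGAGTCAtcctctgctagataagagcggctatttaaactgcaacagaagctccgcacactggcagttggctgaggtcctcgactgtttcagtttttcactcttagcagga
Serpina3g: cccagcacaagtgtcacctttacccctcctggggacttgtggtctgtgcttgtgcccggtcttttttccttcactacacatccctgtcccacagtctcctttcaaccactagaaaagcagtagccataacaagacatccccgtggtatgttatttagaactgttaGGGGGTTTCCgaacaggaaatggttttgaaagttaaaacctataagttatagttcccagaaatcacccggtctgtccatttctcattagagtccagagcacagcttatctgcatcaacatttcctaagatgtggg
Klrk1: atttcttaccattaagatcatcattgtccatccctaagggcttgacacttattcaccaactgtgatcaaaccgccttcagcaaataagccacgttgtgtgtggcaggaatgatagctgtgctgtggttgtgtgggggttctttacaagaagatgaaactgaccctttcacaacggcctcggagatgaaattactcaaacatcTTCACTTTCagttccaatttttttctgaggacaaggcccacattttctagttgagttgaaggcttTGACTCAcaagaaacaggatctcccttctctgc
Cst7: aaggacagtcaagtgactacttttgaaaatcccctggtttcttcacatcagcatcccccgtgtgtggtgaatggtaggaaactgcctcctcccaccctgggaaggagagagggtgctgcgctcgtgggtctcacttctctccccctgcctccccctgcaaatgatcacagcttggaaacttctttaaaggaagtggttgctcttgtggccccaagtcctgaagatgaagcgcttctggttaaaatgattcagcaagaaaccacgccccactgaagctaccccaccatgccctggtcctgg
Ch25h: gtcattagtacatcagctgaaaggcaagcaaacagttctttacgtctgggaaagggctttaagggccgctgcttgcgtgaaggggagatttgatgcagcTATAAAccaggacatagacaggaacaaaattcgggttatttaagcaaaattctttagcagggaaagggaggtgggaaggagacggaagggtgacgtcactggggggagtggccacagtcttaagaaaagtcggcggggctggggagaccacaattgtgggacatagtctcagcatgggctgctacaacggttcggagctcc
Serpinb2: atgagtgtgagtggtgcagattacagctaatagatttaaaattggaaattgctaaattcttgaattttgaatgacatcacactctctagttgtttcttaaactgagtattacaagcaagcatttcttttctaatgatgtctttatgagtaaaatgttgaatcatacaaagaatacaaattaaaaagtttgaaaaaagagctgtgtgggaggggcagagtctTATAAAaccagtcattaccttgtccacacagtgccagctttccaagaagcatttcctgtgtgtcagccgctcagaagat

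The 10-letter NF-kB match of Il6 began 44 bases before the start and its AP-1 match 249 bases before it. Cxcl3 held overlapping NF-kB matches from 73 and 72 bases before the start, another from 50, a TATA box from 30 and an E-box from 155. Olr1 had an AP-1 match 60 bases upstream and an NBRE match 177 bases upstream. Klrk1 had an AP-1 match 18 bases downstream of the start beside an ISRE core 48 bases upstream. Serpina3g held both NF-kB forms, from 85 and 84 bases upstream. Ch25h and Serpinb2 had a TATA match only, 151 and 29 bases upstream, and no searched form of these motifs lay in the window of Cst7. A match is a run of letters and not a bound site.

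Over all 278 promoters of the same length, read from the genome around the GENCODE start, the sequence was CpG-poor. Their median GC content was 51.8% and the median ratio of observed to expected CpG 0.295, with 69 of them (24.8%) over 0.6. The promoters with both marks at rest had 59.7%, 0.757 and 70.2%, and those with neither mark 49.0%, 0.242 and 17.8%. A TATA box was present in 42 of the 278 (15.1%), against 7.28% of promoters with both marks, 18.9% with neither and 12.6% of all. In base composition the H3K27ac-only promoters thus lay nearer to the silent starts than to the active ones.

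AP-1 letters were found in 21 of the 278 (7.55%), in 3.27% of the promoters with both marks, 6.02% of those with neither and 4.59% of all. Among the 54 with Pol II at 1 h in either genotype, 7 (13.0%) had them, among the 72 with Pol II at 18 h 8 (11.1%), and among the 177 without Pol II after LPS 9 (5.08%). The ISRE core was in 33 of the 278 (11.9%) and 8.48% of all promoters, and the 10-letter NF-kB form in 25 (8.99%) and 5.79%. The 9-letter NF-kB form was in 17 (6.12%) and 6.29%. PU.1 letters were in 11 (3.96%) and 3.23% of all, and the E-box in 17 (6.12%) and 7.73%. The NBRE was in 5 of the 278 (1.80%) and 1.22% of all. These are counts of letters in small groups and were not tested.

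The acetylation that defined these promoters was mostly weak and often beside the start. Values are normalized tags, the tags of enriched regions that fall in the window per 10 M tags of the library. The mean H3K27ac value in untreated WT had a median of 13.5 over the 278 (quartiles 9.19 and 23.4), against 217 at the starts with both marks. Only 1 of the 278 lay above that median. An H3K27ac region covered the start base in all 3 libraries at 69 of them and in none at 161, and the covered length had a median of 813 bp against 2660 bp. The name H3K27ac-only promoter therefore describes a window of 5 kb and not acetylation of the start itself. Regions of the input libraries, which had no antibody, overlapped 209 of the 278 windows (75.2%), against 94.0% of the starts with both marks and 18.5% of those with neither.

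Pol II was not far from many of them. The nearest Pol II region of untreated WT had a median distance of 13402 bp from the start. It lay under 5 kb away for 55 and over 10 kb for 163. On 115 of the genes a Pol II region lay elsewhere on the gene body, and on 42 another annotated start of the same gene carried one, among them Cybb, Ctnnb1, Slc31a2, Gse1, Stx4a and Nupr1. For 43 of the 196 genes with a RefSeq promoter, the RefSeq start lay over 2500 bp from the GENCODE start and so outside the window, at Atf3 by 34706 bp, Nrg4 by 43219, Slc31a2 by 23867, Cybb by 18447, Nupr1 by 5391, Olfr1391 by 4671, Amotl1 by 30056, Dst by 103370 and Gse1 by 260410. Values given for these genes are those of the GENCODE start and not of the RefSeq promoter. A start with both marks lay within 10 kb of 27 promoters and within 50 kb of 132. Some of the 278 genes share their window with a neighbour (25 genes, leaving 265 separate windows), so Nrg4 and Tmem266, Bend6 and Dst, Clcf1 and AC109138.7, or P2rx6 and Lrrc74b are not independent observations.

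Promoters just inside the rule had almost no acetylation in at least 1 of the libraries, and Gm49340 and Spata22 in all 3. Dlgap2 had H3K27ac values of 4.56, 0.0685 and 1.10, and Gm49340 and Spata22, which share a start, 0.782, 0.195 and 0.239. Qprt, an enzyme of NAD synthesis, had 11.2, 0.280 and 8.18 and Musk, the muscle receptor kinase, 0.387, 10.7 and 5.37. Just outside, with a Pol II region reaching the window in a single library, lay C4b with 0.104 Pol II tags, Upk3b with 0.213, Fam124b with 0.452, Tnfsf18 with 0.664 and Notch4 with 0.807. At the other end, Taar8b, a trace amine receptor, had the highest H3K27ac mean, with 239.7, 234 and 218, and no Pol II in any group in at least 2 of 3 libraries. Nupr1, a stress-induced chromatin protein, had 114, 106 and 117, and Foxs1, a forkhead factor, 212, 74.2 and 17.1, which differ widely between libraries. Uts2b, Klhl33, Scd4, Spcs2 and Prss30 complete the 8 highest.

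Pol II appeared at the 278 promoters in every group that the rule did not use. In untreated KO it was found at 26 (9.35%), with 34, 42 and 35 in the single libraries, and the background, the share of the 9392 starts with neither mark that met the same count, was 0.16%. At 1 h of LPS WT had 38 (13.7%; 41, 42 and 40 by library) against 0.735% of the starts with neither mark, and KO had 53 (19.1%; 54, 53 and 51) against 0.969%. At 18 h WT had 61 (21.9%; 60, 59 and 67) against 0.916% and KO 60 (21.6%; 57, 61 and 57) against 1.3%. The shares were thus many times those of silent starts, while among starts with both marks Pol II was found again in 91.5% to 99.6%. Of the 292 starts with H3K27ac in all 3 untreated WT libraries and Pol II in 1 or 2, it was found at 50.7% in untreated KO, 22.6% and 30.5% in WT and KO at 1 h, and 41.4% and 41.1% at 18 h. The KO libraries held more of the promoters than the WT libraries at 1 h without overlap, and the ranges overlapped at 18 h. The separation at 1 h was not particular to the 278. Starts with both marks had 9914, 9790 and 9917 in WT and 10128, 10188 and 10113 in KO. Starts with neither had 75, 76 and 66 in WT and 92, 99 and 91 in KO. With 3 libraries against 3 the smallest p of an exact 2-sided permutation test is 0.1, so the number per library was not tested. The untreated KO count gives the promoters that have Pol II without LPS in libraries the rule did not use, since untreated WT was fixed at 0 by the choice. These libraries also differ from untreated WT in genotype, so the count is no baseline for WT. Of the 69 windows that no input region reached, Pol II was found at 9 in untreated KO (13.0%), at 3 and 7 in WT and KO at 1 h (4.35% and 10.1%), and at 13 and 11 at 18 h (18.8% and 15.9%). Of the 209 that one reached, it was found at 17 in untreated KO (8.13%), at 35 and 46 at 1 h (16.7% and 22.01%), and at 48 and 49 at 18 h (23.0% and 23.4%). When every annotated start of a gene had to meet the rule, 171 genes remained, and Pol II was found at 24 in WT and 32 in KO at 1 h, and at 41 in WT and 38 in KO at 18 h.

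**Figure D1:**
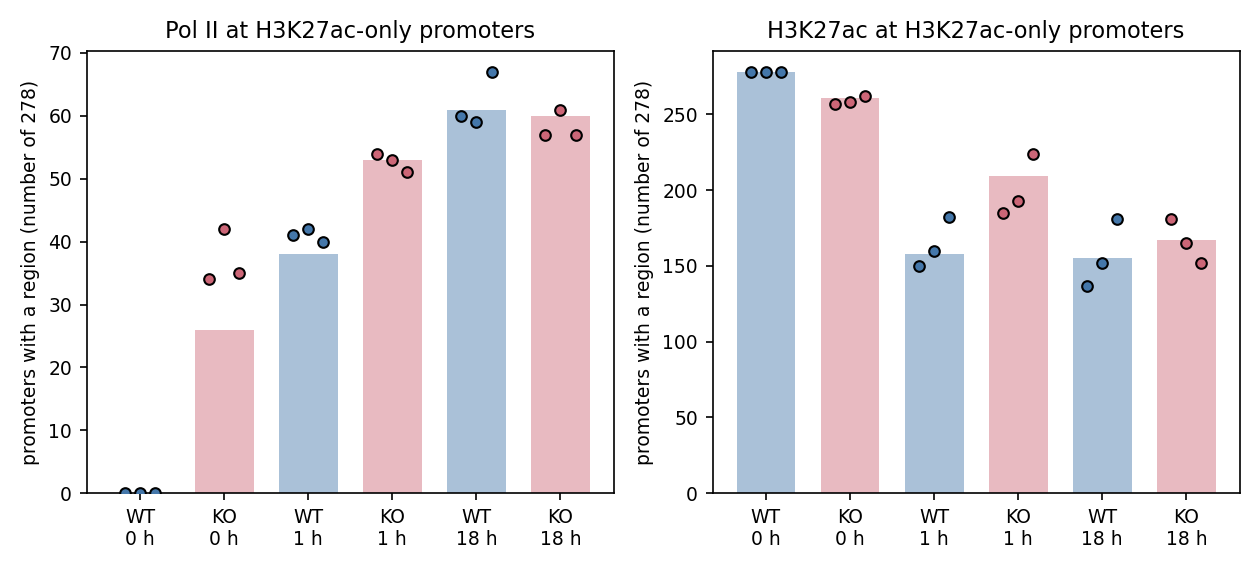
Number of the 278 H3K27ac-only promoters with a Pol II region (left) and with an H3K27ac region (right) in their 5 kb window, by genotype and hours of LPS; WT is blue and KO red. Bars count promoters found in at least 2 of 3 libraries and points are single libraries; the untreated WT values of 0 and 278 are set by the selection, Pol II reaches 38 to 61 promoters after LPS, and H3K27ac is at 155 to 209 of them after LPS.

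In all, 101 promoters had Pol II in at least 1 LPS group, 81 in WT and 90 in KO, and 16 had it in all 4. A further 10 had it in untreated KO only, and 167 in no group. In 127 no Pol II region was found in any of the 18 libraries. Of the 38 promoters found in WT at 1 h, 37 were also found in KO, which is 97.4% of the WT list and 69.8% of the KO list. At 18 h 49 were shared, 80.3% of the WT and 81.7% of the KO list. The early and late lists of one genotype overlapped less, by 18 promoters in WT (47.4% of the 1 h and 29.5% of the 18 h list) and by 23 in KO (43.4% and 38.3%).

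The promoters with Pol II in all 4 LPS groups were those of Il6, the inflammatory cytokine, Clcf1, a cytokine of the same family, Cd38, an enzyme that consumes NAD, Cst7, which encodes cystatin F, a protease inhibitor of lysosomes, Met, the receptor of hepatocyte growth factor, Lpar1, a receptor of lysophosphatidic acid, Slc31a2, a copper transporter, Tarm1, an activating receptor of myeloid cells, Sntb1, a syntrophin, Ren1, which encodes renin, Ppm1n, Nupr1, Nrg4, Tmem266, Gm10553 and AC109138.7. Clcf1, AC109138.7 and Ren1 had it in untreated KO as well.

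Found in both genotypes at 1 h but in none at 18 h were Cxcl3, a chemokine that attracts neutrophils, Olr1, the receptor of oxidized low-density lipoprotein, Amotl1, Abca4, Eml2, Mylk2, Tmigd1, Bend6, Dst, H1foo, Gm17571, Gm49337 and 1700042G07Rik. Msantd3, Serpinb9b and Tmem52b had the same pattern with untreated KO added. Casp12 and Hvcn1 also had Pol II in WT at 18 h, and Ch25h, Cybb and Mtus1 in KO at 18 h. KO alone at 1 h had 4930503B20Rik, Adgb, Ctnnb1, Fabp7, Foxs1, Liph, Lipn, Nfix, Olfr1391, Serpinb2 and Tmem178, and WT alone had Bcl2l15. Most of these lists of 1 genotype hold low values, and presence in a single genotype is no test of a difference.

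The largest pattern was Pol II at 18 h in both genotypes and at no other time, with 25 promoters. Among them were Ly6a, which encodes the surface antigen Sca-1, Serpina3g, an intracellular protease inhibitor, Klrk1, which encodes the receptor NKG2D, Plac8, Cd300e, a receptor of the CD300 family, Tlr12, a Toll-like receptor, Padi4, which citrullinates histones, Vnn3, a vanin, Plbd1, Ssc4d, Stx4a, a syntaxin, Ip6k3, Slc25a31, Tnnt1, Matn1, Zfp750, Arhgef37, Klhl33, Gfra4, Majin, Gm9833, Mgat4e, Shisal2a and BC049352. Cd101, Clec12b, Gse1, Mapre3, Gm14403 and Per2, a clock gene, had it in untreated KO too. WT alone at 18 h had As3mt, Atf3, Btbd18, Lime1, Lrrc74b, P2rx6, S100b and Sstr4, and KO alone had Dnase1l3, H2-Ab1, Mag, Plekhh1 and Qprt. Kynu and Slc6a9 were found at 18 h in both genotypes and at 1 h in KO. The remaining LPS patterns were Spink13 and Tdrd7 (KO at both times), Slc45a3 (KO at 0 and 1 h), Akap17b and Gm525 (untreated KO and WT at 18 h) and Eif5a2 (KO at 0 and 18 h).

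A Pol II region in the window need not belong to the gene. Of the 38 promoters of WT at 1 h, the region covered the start in at least 2 libraries at 19, lay on the gene at 31 and touched another gene at 13. At 18 h the WT counts were 27, 47 and 17 of 61. In KO they were 22, 46 and 14 of 53 at 1 h and 27, 45 and 16 of 60 at 18 h. The region of Nupr1 at 1 h ran over Il27, Apobr, Cln3 and Eif3c, that of Majin at 18 h over Batf2, and that of Slc25a31 lay on Intu. Gm17571 lies with Maml2 and H1foo with Plxnd1. By contrast the regions of Il6, Olr1, Ly6a, Serpina3g and Klrk1 covered the start in all 3 libraries of each group found and touched no other gene. For Ch25h a region covered the start in all 3 KO libraries at 18 h, and in none at 1 h in either genotype.

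The following values are Pol II tags in the window per library. At 1 h, Il6 had 187, 168 and 202 in WT and 122, 128 and 114 in KO, and Cxcl3 had 145, 146 and 153 and 127, 119 and 98.9. Both were higher in every WT library than in any KO library at 1 h. Olr1 went the other way, with 209, 192 and 198 in WT and 402, 349 and 334 in KO. Cst7 had 226, 236 and 241 in WT and 196, 231 and 225 in KO, which overlapped. Nupr1 was highest of all, with 650.3, 603 and 947 and 561, 570.2 and 561, in a region it shares with its neighbours. Met was lower in WT (36.9, 26 and 40.2) than in KO (72.4, 76 and 59.1). Gm17571 (194, 188 and 176 in WT, 192, 188 and 184 in KO), Nrg4 (168, 176 and 183, 194, 189 and 214) and Clcf1 (118, 119 and 113, 141, 141 and 149) were also high at 1 h, with Nrg4 and Clcf1 higher in every KO library than in any WT library.

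At 18 h, Il6 had 76.9, 71.4 and 86.2 in WT and 227, 231 and 229 in KO, so the order of the genotypes was opposite to that at 1 h. Cxcl3 and Olr1 were listed at 0 in all 6 libraries of 18 h. Cst7 had 82.1, 88 and 80.4 in WT and 158, 103 and 164 in KO. Ly6a rose from 0 in all 6 libraries of 1 h to 309, 295 and 300.4 in WT, and had 114, 117 and 281 in KO, where replicate 3 lay far above the other libraries. Serpina3g had 146, 146 and 153 in WT and 243, 257 and 246 in KO, with no overlap. The copper transporter gene Slc31a2 had 189, 183 and 249 in WT and 331, 355 and 351 in KO, after 57.6, 53.2 and 95 and 69.1, 49 and 95.9 at 1 h. Its region did not cover the start in any of these groups. Cd38 had 113, 124 and 128 in WT and 111, 104 and 109 in KO after 1 h values of 59.6, 43.2 and 65.3 and 62.4, 61.8 and 55.6.

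Lower in level, Gse1 had 64.9, 64.5 and 69.3 in WT and 79.1, 81.5 and 61.3 in KO, Ip6k3, an inositol hexakisphosphate kinase, 37.3, 45.9 and 40.6 and 29.5, 29.2 and 31.9, and Plac8 44.5, 36 and 28.9 and 25, 20.0 and 16.6. Gm9833 had 38.6, 40.3 and 45.8 and 40.8, 50.3 and 44.7. Ip6k3 and Plac8 were higher in every WT library than in any KO library, and the other genes overlapped. Clec12b had 33.3, 43.6 and 45.6 in WT and 41.7, 39.7 and 37.2 in KO, from a region that did not lie on the gene. Tarm1 was lower in WT, with 35.7, 41.1 and 38.9 against 78.1, 78.7 and 70.8, and Majin likewise, with 112, 144 and 150.1 against 217, 208 and 226. Many of the late values were low. At the GENCODE start of Atf3, a stress-induced AP-1 family member whose RefSeq promoter lies outside the window, they were 10.2, 0 and 7.06 in WT and 0 in every KO library.

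**Figure D2:**
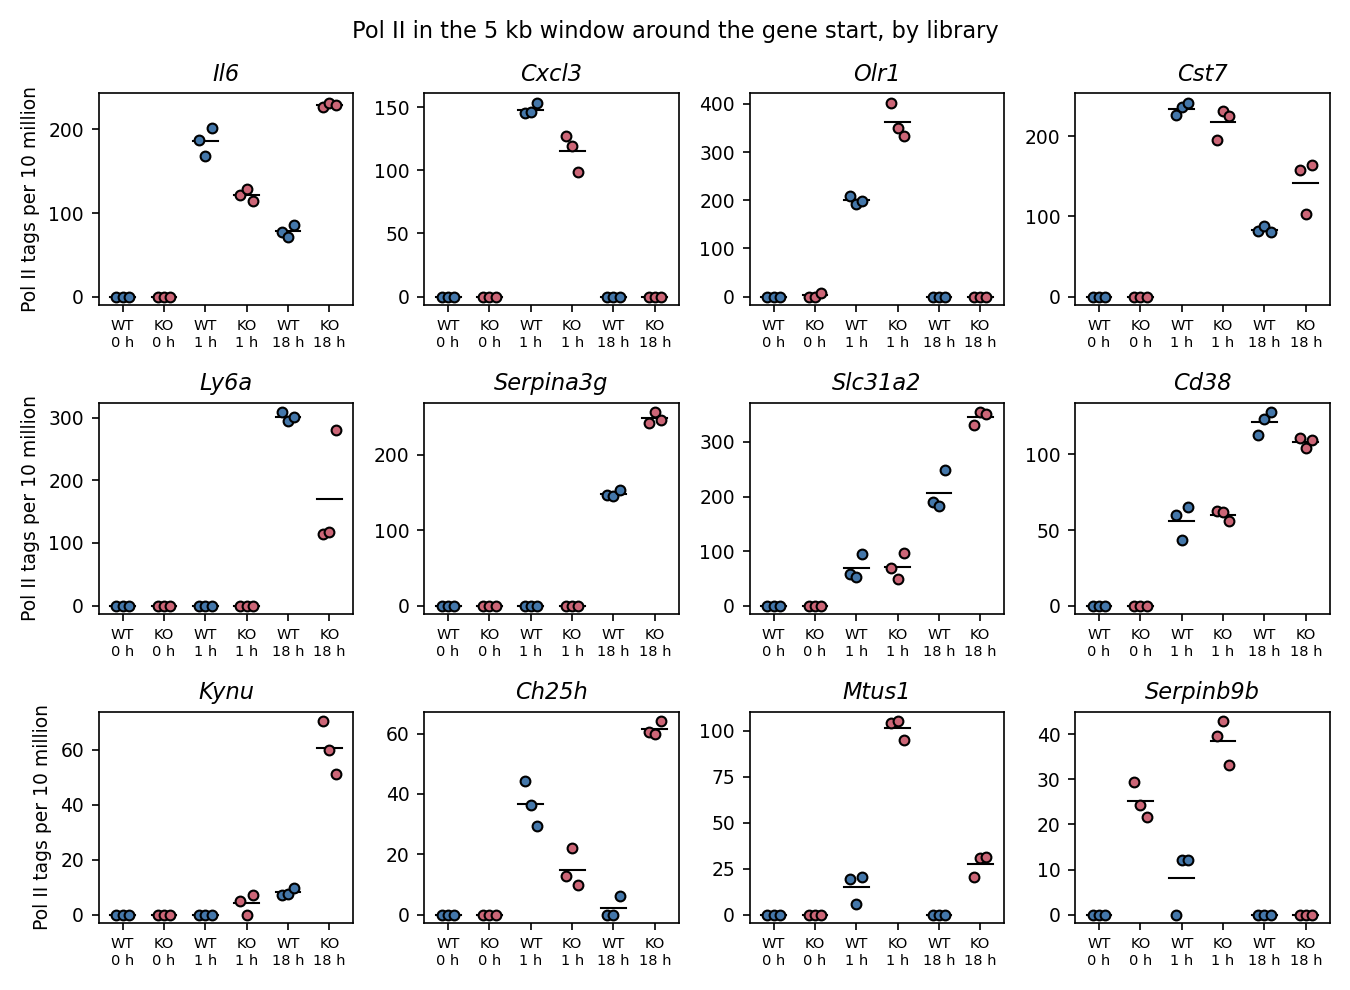
Pol II tags per 10 M in the 5 kb window around the start of 12 of the H3K27ac-only promoters, by genotype and hours of LPS; points are the 3 libraries of a group (WT blue, KO red) and lines are means. Il6 and Cst7 have Pol II at 1 and 18 h, Cxcl3 and Olr1 at 1 h only, Ly6a and Serpina3g at 18 h only, and Kynu and Ch25h are highest in KO at 18 h.

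Contrasts between the other groups were tested with limma on log2(tags + 10). The fit held all 18 libraries of an antibody, so the untreated WT values that the choice had fixed entered the estimate of the spread. A fit without them, chosen after the data had been seen, called the same promoters for Pol II in all 6 contrasts (40, 42, 45, 6, 12 and 16). Every start entered whose window held a region in 2 or 3 libraries of either group. A change was called when the adjusted p (Benjamini-Hochberg) was under 0.05 and the log2 change exceeded 1 in size. The promoters were chosen for lack of Pol II, and one that could be tested only through the group where it was high had to differ, so the numbers called describe the genes and do not support a statement on the 278. Where a group was listed at 0 the log2 change depends on the added 10 and gives no fold. Between KO at 1 h and untreated KO, 72 of the 278 could be tested, of which 35 were higher and 5 lower. Over all starts tested 6.72% were higher and 25% lower. The median log2 change was 0.72 for the promoters tested and -0.45 for all. Quantile normalization, which removes that overall shift, gave 44 higher and 1 lower.

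The largest 1 h rises in KO were at Nupr1 (5.84 ± 0.17, log2 change ± SE), Olr1 (4.95 ± 0.16), Cst7 (4.50 ± 0.13), Nrg4 and Tmem266, which share a window (4.38 ± 0.21), and Gm17571 (4.31 ± 0.09). Il6 rose by 3.71 ± 0.09 and Cxcl3 by 3.64 ± 0.10, and Mtus1, a microtubule-associated protein gene, by 3.48 ± 0.19. The 5 that fell had Pol II in untreated KO, and Gfra2, a receptor of neurturin, led them with 64.5, 67.7 and 73.4 tags untreated and 0 in all other libraries (-2.97). Klrb1a, of the natural killer receptor family, fell with a log2 change of -1.35, Gse1 of -1.05, Cd101 of -1.04 and Bace1 of -1.01. All but Gfra2 lost their call under quantile normalization, and so did Gse1 without replicate 2 (-0.93) and under the density floor (-0.79), Cd101 without replicate 1 (-0.89) and under the floor (-0.72), and Bace1 without replicate 1 (-0.92).

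Between KO at 18 h and untreated KO, 37 of 76 promoters tested were higher and 5 lower, while over all starts 7.07% were higher and 11.8% lower. The median was 0.85 against -0.12 for all, and quantile normalization gave 38 and 2. Slc31a2 (5.15 ± 0.19), Serpina3g (4.69 ± 0.09), Il6 (4.58 ± 0.09), Majin (4.49 ± 0.11), Nupr1 (4.06 ± 0.17) and Ly6a (4.05 ± 0.22) had the largest log2 changes. Gfra2 (-2.97), Serpinb9b, a serpin of the granzyme inhibitor group (-1.81), Klrb1a (-1.35), Msantd3 (-1.11) and Bace1 (-1.01) fell. Klrb1a, Msantd3 and Bace1 lost that call under quantile normalization, and so did Msantd3 without replicate 2 (-0.94) and Bace1 without replicate 1 (-0.92). The contrasts at 1 and 18 h share their untreated KO libraries and are not independent.

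Between 18 and 1 h in WT, 81 of the 278 were tested, and 25 were higher and 20 lower at 18 h, against 35.4% and 5.95% of all starts tested. The split depends on scaling, since the median of all starts moved by 0.66 and quantile normalization gave 12 higher and 30 lower. Ly6a (4.96 ± 0.22), Serpina3g (3.98 ± 0.09), Majin (3.85 ± 0.11), Gse1 (2.93 ± 0.13), Gm9833 (2.36 ± 0.10) and Ip6k3 (2.35 ± 0.10) rose most. Olr1 (-4.39 ± 0.16), Gm17571 (-4.29 ± 0.09), Cxcl3 (-3.98 ± 0.10), Nrg4 with Tmem266 (-3.76 ± 0.21) and Nupr1 (-2.59 ± 0.17) fell most. Of these 12 genes only Nrg4, Tmem266 and Nupr1 had Pol II in at least 2 WT libraries at both times. The other 9 were listed at 0 in every WT library of the time at which they are low, so they could be tested only through the other time and had to differ. Il6 fell by 1.15 on the log2 scale between 1 and 18 h in WT.

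At 1 h, 6 of 54 promoters tested had more Pol II in KO than in WT and 0 had less, where 1.77% of all starts were higher in KO and 0.613% lower. The median log2 difference was 0.36 over the promoters and 0.26 over all starts, and 32 of the 54 (59.3%) had an unadjusted p under 0.05, against 51.4% of all starts tested. Quantile normalization gave 4 higher and 1 lower. Mtus1 differed most, with 19.5, 5.75 and 20.4 tags in WT and 104, 105 and 94.9 in KO, a log2 difference of 2.20 ± 0.19 (SE, adjusted p = 7.55e-07). Serpinb9b had 0, 12.2 and 12.1 in WT and 39.6, 42.9 and 33.1 in KO, a difference of 1.51 ± 0.22 (SE, adjusted p = 1.04e-04). It already had 29.4, 24.4 and 21.7 in untreated KO. Tmem52b (1.08 ± 0.19), H1foo (1.20 ± 0.41), Olfr1391 (1.02 ± 0.13) and Spink13, a protease inhibitor of the Kazal type (1.01 ± 0.15), passed closer to the limit of 1. H1foo had 83.7, 15.4 and 12.3 in WT and 146, 42.9 and 67.7 in KO, and its call was lost without replicate 2 (1.27), without replicate 3 (0.90) and under quantile normalization (0.75). The call of Tmem52b was lost without replicate 2 and under quantile normalization (0.68 in both), that of Spink13 without replicate 1 (0.80) and that of Olfr1391 without replicate 1 (0.92) or 2 (0.95) and under the density floor (0.59). Spink13 and Olfr1391 could be tested only through KO and had to differ.

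At 18 h, 10 of 72 promoters tested were higher in KO and 2 lower, against 0.596% and 1.03% of all starts. The median difference was 0.15 over the promoters and -0.08 over all. Quantile normalization gave 10 higher and 0 lower. Ch25h encodes cholesterol 25-hydroxylase, which makes an oxysterol that restrains viruses and sterol synthesis. It had 0, 0 and 6.18 tags in WT and 60.7, 59.8 and 64.1 in KO, a log2 difference of 2.61 ± 0.19. Kynu, which encodes kynureninase of tryptophan breakdown, had 7.28, 7.54 and 9.68 and 70.5, 59.9 and 51.3, a difference of 1.95 ± 0.16 (SE, adjusted p = 3.45e-07). Both genes were near the floor of the region search in WT and far above it in KO.

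Mtus1 was listed at 0 in WT at 18 h and had 20.3, 30.8 and 31.4 tags in KO (1.89 ± 0.19). Ch25h, Mtus1 and Cybb could be tested at 18 h only through KO, and P2rx6 with Lrrc74b only through WT, so they had to differ and their p-values are not given. Slc25a31, a mitochondrial ADP/ATP carrier gene, had 6.91, 6.61 and 2.30 in WT and 46.3, 48.8 and 40.0 in KO (1.86 ± 0.12 (SE, adjusted p = 2.41e-08)), in a region on the neighbouring gene Intu. Vnn3, whose family splits pantetheine, had 7.46, 5.69 and 14.7 and 48.6, 50.4 and 59.7 (1.73 ± 0.14 (SE, adjusted p = 2.70e-07)). Il6, with the highest level of the 10, differed by 1.44 ± 0.09 (SE, adjusted p = 2.41e-08). None of these groups overlapped, and the calls of Kynu, Slc25a31, Vnn3 and Il6, which were found in both genotypes, held in all 9 alternatives. Klrk1 (21.3, 28.6 and 28 in WT, 76.3, 78.7 and 89 in KO) differed by 1.35 ± 0.11.

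Cybb, the gene of the catalytic subunit of the phagocyte NADPH oxidase, differed by 1.35 ± 0.29, with 0, 0 and 6.86 tags in WT and 27.5, 7.26 and 33 in KO. Another annotated start of Cybb carried Pol II at rest. Plbd1, a phospholipase B-like gene with Pol II elsewhere on its body at rest, differed by 1.33 ± 0.21 and Sntb1 by 1.09 ± 0.21. P2rx6, an ATP-gated channel gene, and Lrrc74b share a window and were the 2 lower in KO, with 10.2, 13.7 and 7.06 in WT and 0 in every KO library (-1.01 ± 0.12). That call was lost without replicate 2 (-0.89) and under quantile normalization.

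**Figure D3:**
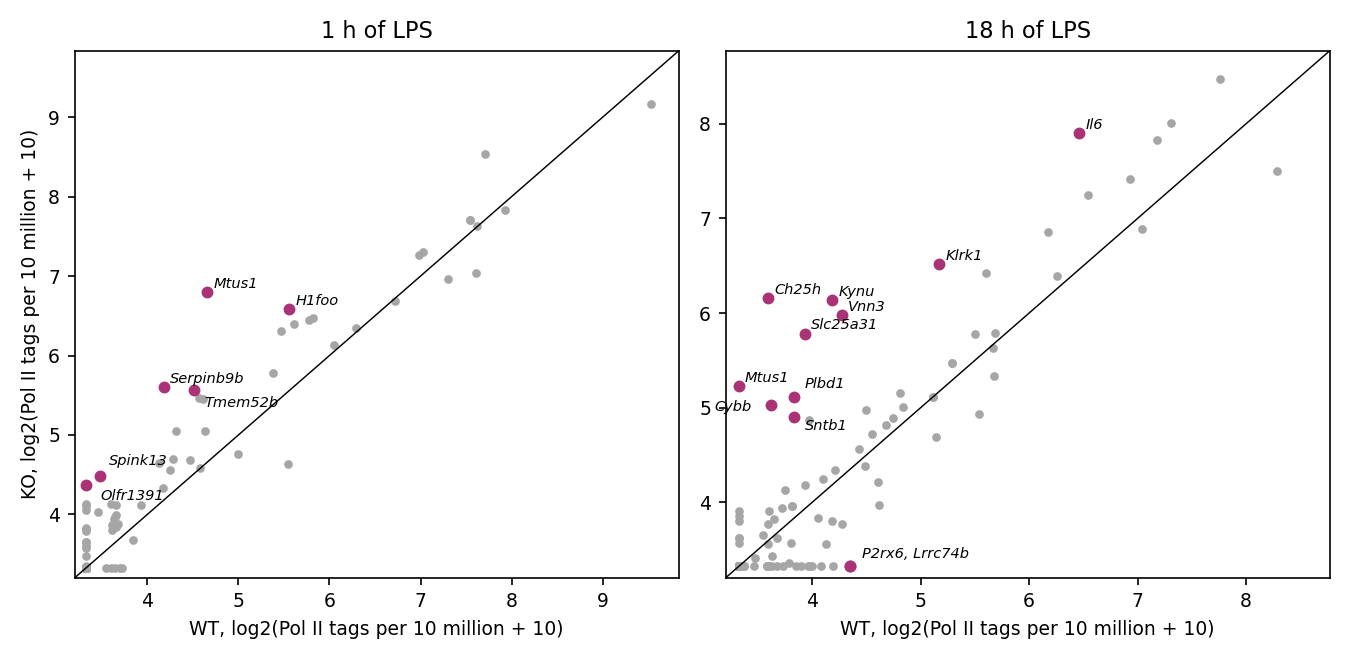
Mean Pol II in the window of each H3K27ac-only promoter in KO against WT, as log2(tags per 10 M + 10), at 1 h (left) and 18 h (right) of LPS; the line marks equal values. Purple points with names are the promoters called by limma (6 at 1 h, 12 at 18 h) and grey points are all others; at 18 h Ch25h, Kynu, Vnn3, Slc25a31, Klrk1, Mtus1 and Il6 lie above the line.

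The change from 1 to 18 h was also compared between the genotypes, and a difference at either time enters this contrast. Of 101 promoters tested, 8 had a larger change in KO and 8 a smaller one, against 1.15% and 4.41% of all starts. The median was -0.20 over the promoters and -0.32 over all, and quantile normalization gave 11 larger and 1 smaller. Ch25h led, with 44.3, 36.5 and 29.2 tags at 1 h in WT against 12.8, 22 and 9.79 in KO and the opposite order at 18 h (3.53 ± 0.27 (SE, adjusted p = 2.61e-07)). Il6 followed (2.02 ± 0.13 (SE, adjusted p = 7.55e-08)). Slc25a31 (1.86), Vnn3 (1.73), Cybb (1.61), Kynu (1.49), Klrk1 (1.35) and Plbd1 (1.11) also had the larger change in KO. The 8 smaller ones were Serpinb9b (-1.51), Tmem52b (-1.12), Casp12 (-1.09), Olfr1391 (-1.02), Dst (-1.02), Tmigd1 (-1.02), P2rx6 and Lrrc74b (-1.01). Serpinb9b, Tmem52b, Olfr1391, Dst and Tmigd1 had a region in at most 1 library of each genotype at 18 h, and a higher mean in KO than in WT at 1 h. The values of Slc25a31, Vnn3, Klrk1, P2rx6 and Lrrc74b equal their differences between the genotypes at 18 h. P2rx6 with Lrrc74b could be tested only through WT at 18 h and Olfr1391 only through KO at 1 h. These 3 genes therefore had to differ.

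Pol II at rest differed between the genotypes at the selected promoters by construction, because WT was fixed at 0, and no test was made. Gfra2 had 64.5, 67.7 and 73.4 tags in untreated KO and no region in any other group, and its H3K27ac values were 14.3, 8.43 and 9.12 in untreated WT and 71, 69.2 and 72.9 in untreated KO. Serpinb9b had 29.4, 24.4 and 21.7 Pol II tags, Clcf1 24.1, 21.3 and 14.2, Klrb1a 12.4, 13.8 and 21.2, Msantd3 6.69, 17.3 and 12.1, Gse1 10.9, 14.5 and 7.32 and Cd101 15.2, 7.81 and 9.29. The 10 promoters with Pol II in untreated KO and in no LPS group were those of Gfra2, Klrb1a, Bace1, Btbd17, Cd276, F13a1, which encodes a subunit of coagulation factor XIII, Fam167b, Hic1, Mn1 and Scd4. Apart from Gfra2, the values in untreated KO were at most 29.4 tags in any library.

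Acetylation was found at fewer of these windows after LPS than at rest. H3K27ac was found in at least 2 of 3 libraries at 261 of the 278 in untreated KO (93.9%), while the same count among starts with both marks was 99.9%. At 1 h it was 158 in WT (56.8%; 150, 160 and 182 by library), against 98.8%, and 209 in KO (75.2%; 185, 193 and 224), against 99.2%. At 18 h it was 155 in WT (55.8%; 137, 152 and 181), against 97.8%, and 167 in KO (60.1%; 181, 165 and 152), against 98.2%. A fall was also seen at the 292 starts with H3K27ac in all 3 untreated WT libraries and Pol II in 1 or 2. Of these 99.0% had H3K27ac in untreated KO, 77.7% and 82.2% in WT and KO at 1 h, and 67.5% and 70.9% at 18 h. In each LPS group the deepest library held the most promoters, and KO libraries were the deeper ones. Under a common density floor for all libraries the counts were 153 in untreated KO, 137 in WT and 140 in KO at 1 h, and 129 in WT and 106 in KO at 18 h, so the excess in KO shrank at 1 h and turned round at 18 h.

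Windows with and without Pol II after LPS differed in H3K27ac. The rule had required H3K27ac in untreated WT, so a fall from that value in WT is partly set by the choice. The 101 with Pol II in an LPS group had median H3K27ac values of 15.3 in WT untreated, 41.0 at 1 h and 34.6 at 18 h, and of 16.6, 41.6 and 38.9 in KO. Of the 101, 16 had Pol II in untreated KO already. The other 177 had 12.9, 2.79 and 1.38 in WT and 13.7, 9.59 and 2.56 in KO. H3K27ac was found in WT at 86 of the 101 at 1 h and 84 at 18 h, and at 72 and 71 of the 177. In KO it was found at 93 and 89 of the 101, and at 116 and 78 of the 177. Because both groups were made from Pol II in the same cells, these are descriptions with no test.

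**Figure D4:**
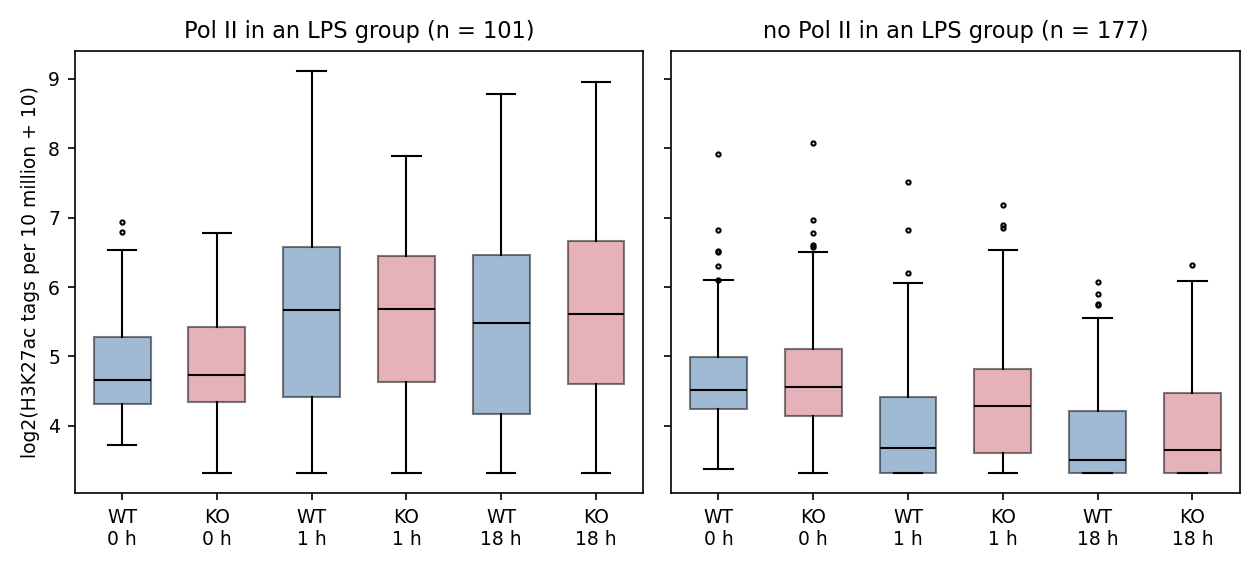
H3K27ac in the 5 kb window, as log2(mean tags per 10 M + 10), for the 101 H3K27ac-only promoters with Pol II in at least 1 LPS group (left) and the other 177 (right), by genotype and hours of LPS (WT blue, KO red). Boxes span the quartiles with the median as a line, whiskers reach the farthest promoter within 1.5 box lengths and circles lie beyond; the medians rise after LPS on the left and fall on the right.

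In KO, 41 of 268 promoters tested for H3K27ac were higher at 1 h than untreated and 50 lower, against 5.51% and 5.73% of all starts. Quantile normalization gave 54 higher and 38 lower and the density floor 55 and 42, so the balance of the 2 directions depends on the processing. Cst7 (3.47), Slc31a2 (2.98), Nrg4 with Tmem266 (2.77), and 1700042G07Rik with Gm49337 (2.63) rose most. These changes average KO libraries of 1 h that were unlike each other. Cst7 had 399, 131 and 149 tags over replicates 1, 2 and 3 of KO, and 572, 543 and 515 in WT. Zg16 (-2.91), Gfra2 (-2.58), Ipcef1 (-2.41), Klrb1a (-2.26), Per2 (-2.23) and Aplnr, the apelin receptor (-2.19), fell most. At 18 h, 37 of 265 were higher and 75 lower, against 6.39% and 10.5%, quantile normalization gave 57 and 54, and the density floor 48 and 53. Ly6a went from 5.86, 0 and 0 tags untreated to 487, 492 and 474, the largest rise (5.41), followed by Slc31a2 (4.20), Il6 (3.67), Cst7 (3.42), Cd38 (3.00) and Serpina3g (2.99). Taar8b, the strongest at rest, fell most (-3.93), from 238, 265 and 274 to 44.2, 0 and 0, with Klrb1a (-3.65), Ipcef1 (-3.25), Gfra2 (-3.02), Zg16 (-2.60) and Fam167b (-2.54).

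In WT, where untreated values were used by the rule, the same genes are given by value only. Il6 had 22.5, 20.3 and 17.8 H3K27ac tags untreated, 218, 232 and 220.1 at 1 h and 236, 221 and 231 at 18 h. Ly6a had 14.8, 10.4 and 11.2, then 0, 14.3 and 11 and 489.8, 487 and 307. Cxcl3 had 7.59, 0.736 and 9.48, then 83.2, 82.7 and 42.2, and was listed at 0 at 18 h. Serpina3g was listed at 0 in all 3 WT libraries at 1 h, between 17.1, 18.3 and 16.1 untreated and 194, 209 and 194 at 18 h. Taar8b had 32.2, 0 and 0 at 1 h and 0 in every library at 18 h.

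Between the genotypes at 1 h, 23 of 220 promoters tested were higher in KO for H3K27ac and 12 lower, where 1.98% and 1.6% of all starts were. Under the density floor the balance turned round, with 10 higher and 17 lower, so no direction is given for the promoters together. The libraries left out bore on the number as well. The number called was 79 without replicate 1 in every group, 1 without replicate 2 and 2 without replicate 3. It was 77 when only the KO library of replicate 1 was left out, an alternative chosen after the data had been seen. In the fit without untreated WT it was 24, of which 14 were higher and 10 lower in KO. Over replicates 1, 2 and 3 of KO at 1 h, Taar8b had 14.5, 151 and 149.9 H3K27ac tags and Il6 160.2, 77 and 70.5. Replicate 1 had a mean r of 0.979 with the WT libraries of 1 h, and the other KO libraries 0.903 and 0.904. The largest differences at 1 h were at Tas2r138 (2.74), Taar8b (2.41), Gm9833 (1.91), Lhfpl2 (1.89), and Rtp4 with Masp1 (1.78), and in the other direction at Uts2b (-2.40), Ren1 (-1.41), Cst7 (-1.40), Pde5a (-1.37), Slc4a11 (-1.32) and Tmem266 (-1.26). Without untreated WT, Taar8b, Lhfpl2 and Uts2b lost their calls. Tas2r138, Lhfpl2, Taar8b, Gm9833, Rtp4 and Masp1 could be tested only through KO and Slc4a11 only through WT, so they had to differ. Tas2r138, a taste receptor gene, was listed at 0 in all 3 WT libraries and had 0, 163 and 163 tags over replicates 1, 2 and 3 of KO, so its value rests on replicates 2 and 3.

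At 18 h, 3 of 175 promoters were called for H3K27ac, all higher in KO, against 0.375% of all starts higher and 0.323% lower. Under the density floor 3 were higher and 4 lower, and 2 of these 7 were among the 3. They were Ch25h, with 13.4, 25.4 and 19.1 tags in WT and 84.3, 79.7 and 81.7 in KO (1.67 ± 0.38 (SE, adjusted p = 0.0223) by limma), Mtus1, with 33.6, 38 and 29.9 and 173, 103 and 80.7 (1.5 ± 0.22 (SE, adjusted p = 8.57e-04)), and Sntb1 (1.15 ± 0.27 (SE, adjusted p = 0.0254)). Each of the 3 was also among the 10 with more Pol II in KO at that time. Without replicate 2 or without replicate 3 in every group 0 were called. The log2 differences in these 2 fits were 1.83 and 1.68 at Ch25h, 1.63 and 1.65 at Mtus1, and 1.09 and 1.52 at Sntb1. Without the KO library of replicate 1 alone 5 were called, with Ch25h and Mtus1 among them. Sntb1 lost its call in that setting (0.95) and without replicate 1 in every group (0.84). In the fit without untreated WT only Mtus1 was called, and Ch25h and Sntb1 had adjusted p-values of 0.054 and 0.055 by limma. Over replicates 1, 2 and 3 of KO at 18 h, Atf3 had 696, 50.5 and 34.1 H3K27ac tags.

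Gene lists place the 278 among known classes. Of 34 late LPS genes, 4 were among them, namely Il6, Cxcl3, Cd38 and Serpinb2, while 13 had both marks at rest and 8 neither. Of 28 early LPS genes 0 were among them and all 28 had both marks. The share among all starts was 1.27%. Serpinb2, which encodes plasminogen activator inhibitor 2, had 0, 5.93 and 7.11 Pol II tags in KO at 1 h and 0, 7.76 and 0 in WT. Of 42 interferon-response genes found in the annotation only Rtp4 was among the 278, with no Pol II in any group in at least 2 libraries. The AP-1 list of 15 gave Atf3 alone, and that of 9 T and NK cell markers Lck, with no Pol II in any group. Of the B cell, neutrophil and stromal markers, of the cell cycle, histone, ribosomal protein and respiratory chain genes 0 were among the 278.

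Large families were present in small numbers. There were 10 of 1133 olfactory receptor genes, of which Olfr1391 alone had Pol II in at least 2 libraries of a group (KO at 1 h, 13.5, 12.7 and 5.82). There were 10 of 371 solute carrier genes, among them Slc31a2, Slc25a31, Slc6a9, a glycine transporter, and Slc45a3, 3 of 365 numbered zinc finger genes with Zfp750 having Pol II in its window at 18 h from a region that lay on Tbcd and not on Zfp750, and 2 of 175 genes on a list of G protein-coupled receptors, Lpar1 and Gpr33. Of 123 genes of developmental factor families only Hoxa7 was among them, and of 149 ion channel genes only Cacna1a, both without Pol II in any group.

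Whole lists give the setting in which these promoters changed. Of the late LPS genes, 24 of 28 tested had more Pol II in KO at 1 h than untreated and 0 less, where all starts had 6.72% and 25%, and 19 of 24 more at 18 h and 1 less, where all starts had 7.07% and 11.8%. Of the early LPS genes 18 of 28 were higher and 1 lower at 1 h, and of the interferon-response genes 28 of 38 higher at 1 h and 39 of 39 at 18 h. Of the AP-1 list 3 of 14 were higher at 1 h and 2 lower. At 18 h 3 of 24 late LPS genes had more Pol II in KO than in WT, Il6 among them, and 0 less (0.596% and 1.03% of all). In the change from 1 to 18 h 5 of 30 late LPS genes were larger in KO and 0 smaller, and 10 of 40 interferon-response genes were larger and 0 smaller (1.15% and 4.41% of all). Between the genotypes 0 of 39 interferon-response genes were higher in KO and 4 lower at 1 h (1.77% and 0.613% of all), with a median log2 difference of -0.47 against 0.26 over all starts, and 2 of 39 were higher and 0 lower at 18 h. From 1 to 18 h in WT, 5 of 27 late LPS genes rose and 14 fell, Cd38 among those that rose and Cxcl3 and Il6 among those that fell, against 35.4% and 5.95% of all starts.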

How the data were processed

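Per the article, the authors aligned reads to mm10 with HISAT2 (2.1.0 in the submitters' processing notes), removed duplicates and called regions in each library with HOMER. Per the file headers, windows of 500 bp past a Poisson p of 0.001 were stitched within 1000 bp, without input control. The deposited signal of a region is its tags per 10 M (mega). A region shares its tags with a window by overlap. A 0 means that no region reached the window, not that reads were absent. The catalogue number of the Pol II antibody differs between label and article.

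Starts are the 5′ ends of GENCODE vM21 genes (GRCm38). 54 genes with duplicate symbols were left out. RefSeq held a promoter for 196 of the 278 genes, 124 within 100 bp of the GENCODE start and 43 over 2500 bp from it. Contrasts were tested with limma 3.58.1 (R 4.3.3, trend, 6 group means over 18 libraries per antibody) on log2(tags + 10), with Benjamini-Hochberg adjustment over all starts tested. Alternatives were pseudocount 1, quantile normalization, other windows, stricter regions, input-free windows, all annotated starts, a region in all 3 libraries, a density floor, the replicate block, left-out replicates and, added after the data were seen, fits without untreated WT or without single KO libraries of H3K27ac. Motifs were searched on both strands. Named genes were those of highest Pol II per group (15 each, 8 in untreated KO), the 6 largest calls per direction, list members, and those at the extremes of H3K27ac. Full lists of promoters per pattern, and further called genes, were named beyond that rule after their values were seen. One gene of a pattern is not reported here by name. The promoters and lists were chosen with earlier results of these data known. Python 3.11.15, pandas 2.3.3, numpy 2.4.6, pysam 0.24.0, the R package data.table (1.17.8) and matplotlib 3.10.9 were used.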

Additional observations from a re-analysis of the deposited data

Results flagged for a closer look

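At 12 promoters the change of Pol II from 1 to 18 h of LPS differed between KO and WT by a limma interaction test over all starts, among those named by rule. The change was larger in KO at Ch25h (log2 difference 3.53 ± 0.27 (SE, adjusted p = 2.61e-07)), Il6 (2.02 ± 0.13 (SE, adjusted p = 7.55e-08)), Slc25a31 (1.86 ± 0.17 (SE, adjusted p = 2.27e-06)) and Vnn3 (1.73 ± 0.20 (SE, adjusted p = 2.02e-05)), and these 4 were called in all 9 alternatives. Slc25a31 and Vnn3 were listed at 0 at 1 h, so their value is the difference at 18 h. At Slc25a31 the region lies on Intu. It was larger in KO at Cybb (1.61 ± 0.40 (SE, adjusted p = 0.00738)), called in 6 of 9 and lost under the density floor (0.95), without replicate 1 (1.41) and without replicate 3 (1.36), and at Kynu (1.49 ± 0.23 (SE, adjusted p = 2.74e-04)), called in 8 of 9 and lost with pseudocount 1 (0.87).

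The change was smaller in KO at Serpinb9b (-1.51 ± 0.31 (SE, adjusted p = 0.00229)), which lost its call under quantile normalization (-1.24). It was also smaller at Tmem52b (-1.12 ± 0.27 (SE, adjusted p = 0.00558)), lost under quantile normalization (-0.80) and without replicate 2 (-0.74), and at Casp12, an inflammatory-type caspase gene (-1.09 ± 0.15 (SE, adjusted p = 1.49e-04)), lost under quantile normalization (-0.58) and the density floor (-0.09). Olfr1391 (-1.02 ± 0.18) had Pol II in KO at 1 h only, so it could be tested only through that group, had to differ, and its p is not given. Its call was lost under the floor (-0.59) and without replicate 1 (-0.92) or 2 (-0.95). Dst (-1.02 ± 0.32 (SE, adjusted p = 0.023)) kept its call in 4 of 9 alternatives and Tmigd1 (-1.02 ± 0.29 (SE, adjusted p = 0.0137)) in 5 of 9. The median of all starts was -0.32 in this contrast, in the same direction as these 6.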

How the results depend on the processing

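The sign turned round under no alternative for the single genes named by rule. The balance of higher and lower calls did turn round, from 23 and 12 to 10 and 17 for H3K27ac between the genotypes at 1 h under the density floor, and from 25 and 20 to 12 and 30 for Pol II in WT between 18 and 1 h under quantile normalization. Of the results of single genes under alternatives, 837 stayed on their side of the threshold and 84 did not. The number of promoters was 180 with the density floor (135 of them among the 278), 69 with input regions left out, 171 with all annotated starts required (167 shared), and 350 to 381 without 1 replicate. A window of 1000 bp gave 207 (149 shared), stricter regions 186 (128 shared) and at least 500 bp covered 251 (216 shared). Pol II in untreated KO was found at 9 of the input-free promoters, at 17 in all 3 libraries, at 68 in at least 1, and at 19 to 21 without 1 replicate. For WT at 1 h the numbers were 3 (input-free), 24 (all starts) and 33 to 35 (without 1 replicate). For KO at 1 h they were 34 (1000 bp window), 7 (input-free), 32 (all starts) and 46 to 48. For WT at 18 h they were 13 (input-free) and 46 to 55, and for KO at 18 h 11 (input-free), 38 (all starts) and 49 to 53. With the 278 kept, H3K27ac was found under the density floor at 153 in untreated KO, 137 in WT and 140 in KO at 1 h, and 129 in WT and 106 in KO at 18 h. Without 1 replicate it was found at 249 to 252 (KO 0 h), 136 to 147 (WT 1 h), 153 to 192 (KO 1 h), 128 to 148 (WT 18 h) and 134 to 144 (KO 18 h).

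With pseudocount 1, 66 promoters were called for Pol II in KO at 1 h against untreated, 74 in WT between 18 and 1 h, 17 between the genotypes at 1 h, and 6 for H3K27ac between the genotypes at 18 h, where the density floor gave 7 (3 higher and 4 lower in KO). Without 1 replicate the Pol II calls were 37 to 41 (KO at 1 h), 40 to 42 (KO at 18 h), 44 to 47 (WT 18 against 1 h), 5 to 7 and 10 to 14 (KO against WT at 1 and 18 h) and 13 to 16 (difference of changes). For H3K27ac they were 72 to 104, 104 to 120, 1 to 79 and 0 to 3. Left out alone after the data were seen, the KO replicate 1 library gave 77 at 1 h and 5 at 18 h. Without the untreated WT libraries, also chosen after the data were seen, the H3K27ac calls were 89, 111, 24 and 1, and the Pol II calls did not change. The cause of these changes was not tested.

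The replicate numbers did not pair the libraries, since deviations of same-numbered libraries correlated between -0.05 and 0.09 for Pol II and between -0.43 and 0.08 for H3K27ac, and 7 and 3 of 18 libraries lay closest to their own number. With the replicate block the Pol II calls were 40, 42, 45, 6, 12 and 16, equal to those without it, and the H3K27ac calls 89, 113, 28 and 3.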
